A study of Rattus norvegicus with 49 samples.

Results

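The genes described here encode the subunits of the mitochondrial respiratory chain and of the ATP synthase, with a few assembly factors that carry the same gene names. They were all the genes of the array whose symbol starts with Nduf, Sdh, Uqcr, Cox4, Cox5, Cox6, Cox7, Cox8 or Atp5, which gave 88 of the 10412 genes with a probe set of their own. Genes were tested if the brightest probe set had a signal of 100 or more on 5 of the arrays, and 85 of the 88 genes passed, of 8094 genes tested in all. The tissue was left hippocampal CA1, a field of pyramidal neurons needed for spatial memory, taken from Fisher 344 rats and hybridised to Affymetrix RAE 230A arrays, 1 per rat. There were 9 animals each at 3, 6, 9 and 12 months and 13 at 23 months, 49 in all, after the removal of 2 aged rats in poor health. All animals, the youngest included, had been through water maze training and probe trials before the tissue was taken. The labels give no genotype other than the strain and no drug treatment, and the age groups are different animals, so each age difference is one between groups and not within an animal.

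The respiratory chain passes electrons from NADH and succinate to oxygen and stores the energy as a proton gradient across the inner mitochondrial membrane. Complex I takes electrons from NADH and complex II from succinate, both hand them to ubiquinone, complex III passes them to cytochrome c, and complex IV, cytochrome c oxidase, reduces oxygen. Complex V, the ATP synthase, lets protons flow back and makes ATP. Complexes I, III, IV and V hold subunits of the nuclear and of the mitochondrial genome, while complex II is wholly nuclear encoded. All the genes described here are nuclear. CA1 neurons depend on this pathway to restore ion gradients after firing.

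Of the 85 tested genes, 34 encode subunits of complex I, 4 of complex II, 7 of complex III, 14 of complex IV and 15 of complex V, and 11 encode no subunit. Ndufa4 and its relative Ndufa4l2 carry a complex I name, and Ndufa4 is now placed in complex IV, so both were counted there. The 3 genes that were not tested, Cox8b, Cox6a2 and Cox6b2, are forms best known from heart, skeletal muscle or testis, and reached signals of at most 73.4, 79.3 and 64 on any array. Just inside the filter lay Cox4i2, with a signal of 100 on 10 arrays, Ndufa4l2 on 18, the pseudogene Cox6c-ps1 on 22 and Cox7a1 on 41. Cox5a was read by a dim probe set, with a mean signal of 205 ± 27.4 at 3 months (SD, n = 9). In all, 7 probe sets that match a gene of the set together with another symbol, among them those of Atp5mc1, Atp5mc2, Ndufa10, Ndufs5 and Uqcrb, were not used.

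Promoters are shown for the genes whose signal fell along age by the test described further on, Ndufb6 and Uqcrc2, and for Cox4i1, a complex IV gene that did not pass it. Each run holds the 250 bases before and the 50 after the gene's start in RefSeq on GRCr8, read along the gene's strand. Ndufb6 lies at chr5:60206103-60206402 on the minus strand, Uqcrc2 at chr1:184598990-184599289 on the plus strand and Cox4i1 at chr19:65630133-65630432 on the plus strand. Capitals mark letters that match 1 of 3 motifs of factors known to act on respiratory chain genes.

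Ndufb6: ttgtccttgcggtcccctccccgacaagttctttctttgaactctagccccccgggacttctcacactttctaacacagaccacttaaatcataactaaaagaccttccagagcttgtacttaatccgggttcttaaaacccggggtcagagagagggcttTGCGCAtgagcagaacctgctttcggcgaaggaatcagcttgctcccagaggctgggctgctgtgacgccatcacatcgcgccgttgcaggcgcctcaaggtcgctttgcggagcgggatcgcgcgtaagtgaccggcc
Uqcrc2: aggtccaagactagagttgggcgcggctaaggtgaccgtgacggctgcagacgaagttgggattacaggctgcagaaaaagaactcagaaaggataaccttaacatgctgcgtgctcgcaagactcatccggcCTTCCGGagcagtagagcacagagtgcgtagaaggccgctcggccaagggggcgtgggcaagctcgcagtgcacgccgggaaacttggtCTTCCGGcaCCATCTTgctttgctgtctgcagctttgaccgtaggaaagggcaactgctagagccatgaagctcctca
Cox4i1: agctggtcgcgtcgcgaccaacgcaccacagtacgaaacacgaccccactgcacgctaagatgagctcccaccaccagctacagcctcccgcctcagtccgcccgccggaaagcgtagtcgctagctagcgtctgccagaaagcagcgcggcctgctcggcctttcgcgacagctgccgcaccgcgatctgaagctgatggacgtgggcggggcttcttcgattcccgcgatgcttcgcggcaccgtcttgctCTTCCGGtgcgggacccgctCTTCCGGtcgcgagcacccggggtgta

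The motifs were the NRF1 core TGCGCA, which reads the same on both strands, the ETS motif CCGGAAG of the GABP family, read CTTCCGG on the other strand, and the YY1 motif AAGATGG, read CCATCTT on the other strand. Ndufb6 holds the NRF1 core 89 bases before the start. Uqcrc2 holds CTTCCGG 117 and 28 bases before the start and CCATCTT 19 bases before it. Cox4i1 holds CTTCCGG 3 and 23 bases after the start. RefSeq promoters were matched for 77 of the 85 tested genes, and 51 of these, 66.2%, held at least 1 of the 3 motifs, against 20.6% of all 33469 promoters of that length. The NRF1 core stood in 22 of the 77 promoters (28.6%, against 7.24% of all), the ETS motif in 24 (31.2%, against 8.75%) and the YY1 motif in 20 (26.0%, against 7.01%). All 33469 promoters were counted, without a limit to the 8094 tested genes and without matching for signal. The gap in shares therefore cannot be read as particular to this set of genes. These are matches of letters, which do not show that a factor binds.

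The arrays were alike in overall signal, with medians between 208.65 and 225.3 and with 10186 to 10924 probe sets at a signal of 100 or more. On 5 arrays, replicates 4, 6, 7 and 8 of 3 months and replicate 11 of 23 months, the choroid plexus gene Ttr had a signal over 2000 (from 3908 to 16310). The mean level of the 85 genes on these 5 arrays lay between -0.058 and 0.025 on the log2 scale relative to the mean over all animals, inside the range of the other 44 arrays, -0.084 to 0.075. Where the call of a member, or the sign of a complex's median, turned without the 5 arrays, that value is given. The 3′ over 5′ signal ratio, which rises as RNA degrades, averaged on the log2 scale 0.260 at 3 and 0.309 at 23 months for GAPDH and 0.815 and 0.925 for actin, and its part in the results was not tested.

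The widest comparison was that of 23 with 3 months. No gene of the respiratory chain or ATP synthase passed it, and most differences were small. In limma's moderated test with Benjamini-Hochberg adjustment over all tested genes, 0 of 85 had an adjusted p under 0.05, beside 264 of the 8094 genes (3.26%). At an unadjusted p under 0.05 there were 7 of 85 (8.24%), all lower at 23 months (Ndufb6, Uqcrc2, Sdhaf3, Cox7b, Ndufv3, Ndufa2 and Uqcr10), against 1167 of all genes (14.4%), of which 504 (6.23%) were lower. The signals of the 23-month and 3-month groups overlapped for all 85 genes. Among all genes they did not overlap for 30 that were higher (0.371%) and 2 that were lower (0.0247%).

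The median log2 difference of the 85 genes between 23 and 3 months was -0.011, with 39 higher and 46 lower, beside a median of 0.001 over all genes. With quantile normalization the median was -0.021, with 31 higher and 54 lower. The sign of the median rested on few arrays: it was 0.0039 without the 5 arrays of high Ttr signal, and 0.00053 and 0.0015 without replicate 2 or replicate 9 of 3 months. The single differences ran from -0.21 to 0.23, and their median size was 0.043, against 0.070 over all genes. The median standard error of these genes was 0.053, against 0.078 over all genes, which were not matched to them for signal. The 95% interval of the difference lay within ±0.25 for 73 of the 85 genes (85.9%), against 55.1% of all genes, and within ±0.5 for 83 of 85 (97.6%), against 91.7%.

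**Figure D1:**
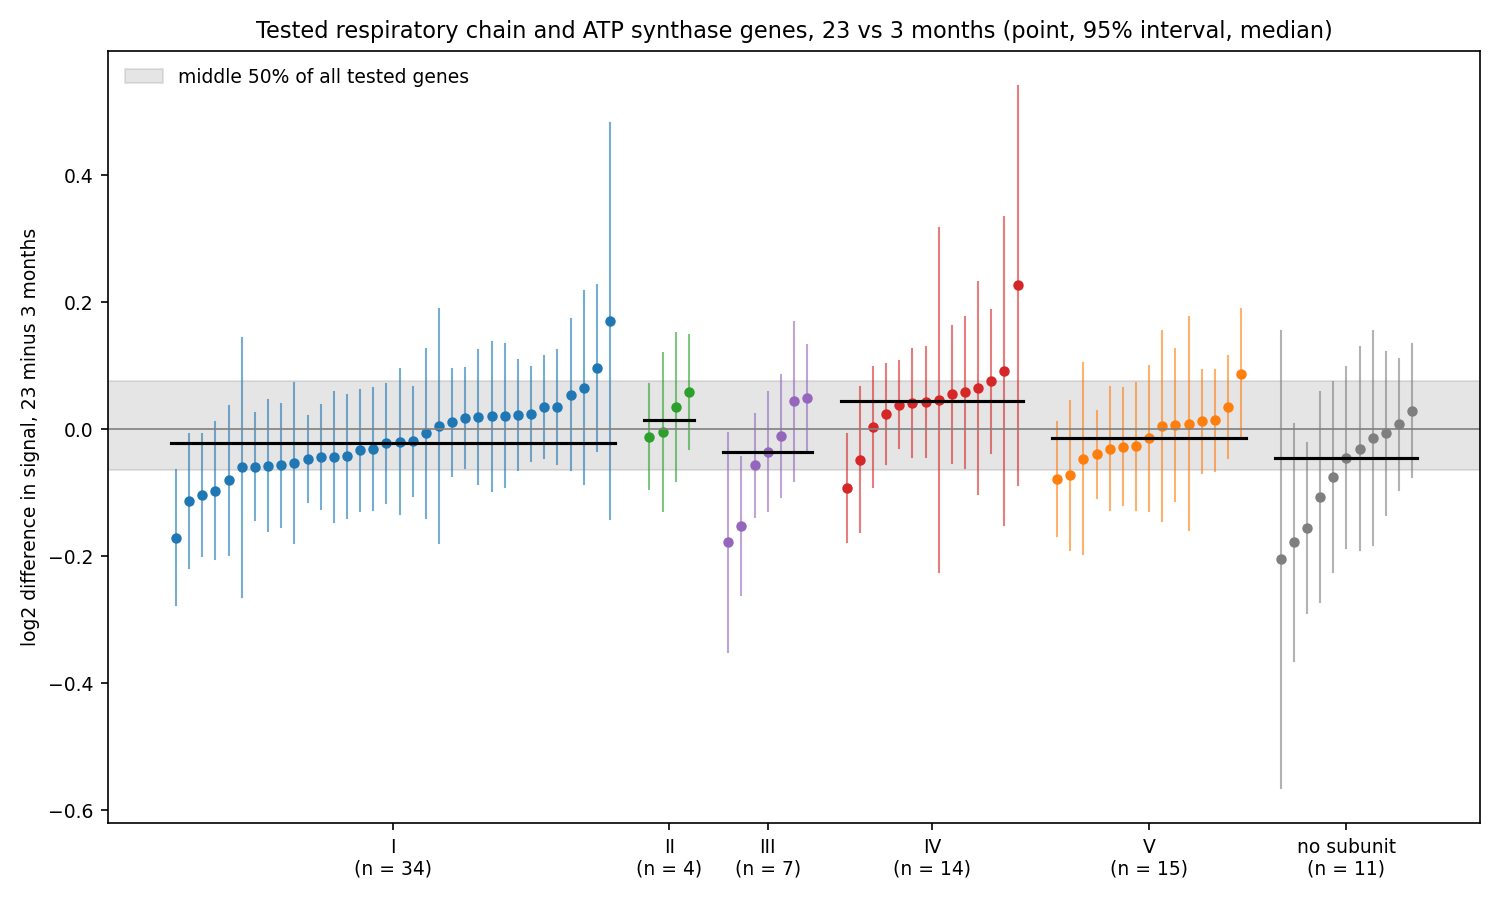
Log2 difference in signal between 23 and 3 months for each of the 85 tested genes (points) with its 95% interval, by complex (I to V, and genes that encode no subunit), with the median of each complex as a black line and the middle 50% of all 8094 tested genes in grey. The medians run from -0.045 for the genes that encode no subunit to 0.045 for complex IV, and no gene passed the adjusted test.

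Complex I, the entry point of electrons from NADH, had a median log2 difference of -0.021 between 23 and 3 months, with 14 subunit genes higher and 20 lower. With each array left out in turn the median lay between -0.034, without replicate 7 of 3 months, and -0.0081, without replicate 2 of 3 months. Of its 6 tested core genes, which encode subunits that carry out electron transfer, 5 were lower and 1 higher, with a median of -0.025. They included Ndufs1 (-0.043 ± 0.049 SE) and Ndufv1 (-0.031 ± 0.048), which encode subunits of the NADH-oxidising arm. The 28 accessory genes had a median of -0.021, with 13 higher. Ndufa2, an accessory subunit of the peripheral arm, had a signal of 1969 ± 157 (SD, n = 9) at 3 months and 1820 ± 130 (SD, n = 13) at 23 months, a difference of -0.11 ± 0.053 that did not pass (adjusted p = 0.291, limma). Ndufv3 differed by -0.10 ± 0.048 (adjusted p = 0.281, limma). At the other end lay Ndufb4, at 0.096 ± 0.065, and Ndufb8, at 0.17 ± 0.16, both accessory subunits of the membrane arm. The 95% interval of Ndufb8 ran from -0.14 to 0.48, one of the widest of the set, and its spread within ages was the highest of complex I. The Ndufb8 difference was 0.30 without the arrays of high Ttr signal and 0.10 without replicate 1 of 23 months.

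The complex I gene with the smallest p was Ndufb6, an accessory subunit of the membrane arm. At 3 months its signal ran from 2150 through a median of 2544 to 2804, at 6 months from 2259 through 2460 to 2805, and at 9 months from 2338 through 2443 to 2738. At 12 months it ran from 1982 through 2551 to 2856, and at 23 months from 1877 through 2231 to 2649. The 23-month animals were the lowest group and overlapped with every other age. Of the 13 oldest animals, 11 lay below the 3-month mean of 2517 ± 204 (SD, n = 9), and their own mean was 2238 ± 220 (SD, n = 13). The mean signals of 6, 9 and 12 months were 2499, 2477 and 2485. The difference between 23 and 3 months was -0.17 ± 0.053 SE on the log2 scale and did not pass (adjusted p = 0.0606, limma). It passed with array weights (adjusted p = 0.0497, limma) and when any of 6 arrays was left out: replicates 1 and 3 of 3 months, replicate 6 of 12 months and replicates 4, 6 and 9 of 23 months, with adjusted p between 0.0231 and 0.0491 (limma).

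Complex II, succinate dehydrogenase, is shared by the respiratory chain and the citric acid cycle. Its 4 genes had a median log2 difference of 0.015 between 23 and 3 months, 2 higher and 2 lower. Without the arrays of high Ttr signal it was 0.038 with 3 higher, and with each array left out in turn it lay between 7.5e-05, without replicate 15 of 23 months, and 0.039, without replicate 1 of 23 months. Sdha, the flavoprotein that oxidises succinate, differed by 0.035 ± 0.058 SE and Sdhb, the iron-sulfur subunit, by -0.012 ± 0.042. Sdhc and Sdhd, the membrane anchors, differed by 0.058 ± 0.045 and -0.0047 ± 0.062, the latter at 0.033 without the arrays of high Ttr signal. None passed (adjusted p of 0.605 or more in limma), and the 4 intervals together spanned -0.13, the lower bound of Sdhd, to 0.15, the upper bound of Sdha. A dimmer probe set of Sdhd, with a mean signal of 1339, gave a difference of -0.089 ± 0.038.

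Complex III, the cytochrome bc1 complex, had 5 of 7 genes lower, with a median log2 difference of -0.035. Without the 5 arrays of high Ttr signal the median was 0.0030, with 4 of 7 genes higher, and without replicate 4 of 3 months alone it was -0.0017. Uqcr10, a small subunit, had a signal of 4019 ± 509 (SD, n = 9) at 3 months and 3565 ± 545 (SD, n = 13) at 23 months, with 11 of 13 animals below the 3-month mean. That difference of -0.18 ± 0.086 did not pass (adjusted p = 0.313, limma), and it was -0.050 without the arrays of high Ttr signal. Uqcrfs1, the Rieske iron-sulfur protein, and Uqcrc1, a core protein, differed by -0.035 ± 0.047 and -0.011 ± 0.048. Uqcrh, the hinge protein, and Uqcrq were the only higher genes, by 0.049 ± 0.042 and 0.044 ± 0.062. Without the arrays of high Ttr signal the Uqcrq difference was 0.0030.

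Uqcrc2, the other core protein of complex III, had the smallest p of its complex. Its signal ran from 3868 through a median of 4208 to 5042 at 3 months, from 3545 through 4301 to 4784 at 6 months and from 3752 through 4212 to 4455 at 9 months. It ran from 3574 through 4240 to 4693 at 12 months and from 3322 through 4018 to 4401 at 23 months. The age groups overlapped widely, with 12 of the 13 oldest animals below the 3-month mean. The group means were 4379 ± 429, 4303 ± 409, 4180 ± 266 and 4196 ± 340 (SD, n = 9 each) and 3937 ± 359 (SD, n = 13). The difference between 23 and 3 months was -0.15 ± 0.054 SE and did not pass (adjusted p = 0.116, limma).

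Complex IV had the largest share of genes higher at 23 months, 12 of 14, with a median log2 difference of 0.045. That shift depended on how arrays were scaled: with quantile normalization the median was 0.0080 and 8 of 14 were higher. No gene of complex IV passed. Cox4i1, the ubiquitous form of the regulatory subunit 4, was nearly level, at 8884 ± 467 (SD, n = 9) at 3 months and 9130 ± 559 (SD, n = 13) at 23 months, with a 95% interval of the log2 difference from -0.030 to 0.11. With quantile normalization the Cox4i1 difference was -0.020. Its sister form Cox4i2, a form linked to low oxygen and best known from lung, was dim: its signal ran from 65.3 through a median of 82.3 to 133.5 at 3 months and from 69.1 through 99.5 to 137.9 at 23 months, with 11 of 13 animals above the 3-month mean. The Cox4i2 difference of 0.23 ± 0.16 did not pass (adjusted p = 0.553, limma).

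Other forms that differ between tissues were compared in the same way. Cox6a1 and Cox6b1, the forms of subunits 6a and 6b found outside muscle and testis, differed by 0.041 ± 0.043 and 0.055 ± 0.053 SE, and Cox8a, the general form of subunit 8, by 0.043 ± 0.043 (-0.039 with quantile normalization). Cox7a1, the form best known from heart and muscle, had a signal of 117 ± 24.0 at 3 months and 124 ± 24.4 at 23 months (0.091 ± 0.12). Cox7a2l, a relative of subunit 7a that takes part in joining complexes III and IV, differed by 0.0033 ± 0.047. The 2 genes of complex IV that were lower were Cox7b (-0.093 ± 0.042, adjusted p = 0.272, limma) and Ndufa4 (-0.048 ± 0.057). Cox7b ran from 6461 through a median of 7332 to 7496 at 3 months and from 6114 through 6516 to 7996 at 23 months, so of these ages the older held both the lowest and the highest animal.

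Complex V had 7 of 15 genes higher and 8 lower, with a median log2 difference of -0.014, which was 0.0039 without the arrays of high Ttr signal and 0.025 and 0.00014 without replicate 2 or 9 of 3 months. With quantile normalization 4 of 15 were higher. In the catalytic F1 part 4 of 5 genes were lower, with a median of -0.027. Atp5f1a, the alpha subunit, had a signal of 5406 ± 333 (SD, n = 9) at 3 months and 5128 ± 434 (SD, n = 13) at 23 months, a difference of -0.079 ± 0.045 (adjusted p = 0.431, limma). Atp5f1b, the catalytic beta subunit, differed by -0.027 ± 0.050 and Atp5f1d, the delta subunit of the central stalk, by -0.073 ± 0.058. In the membrane part and the peripheral stalk 6 of 10 genes were higher, with a median of 0.0076. The highest was Atp5me, at 0.087 ± 0.051, for which a dim second probe set gave -0.28 ± 0.23. Atp5pf, coupling factor 6 of the peripheral stalk, differed by 0.035 ± 0.040.

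The 11 genes that share the names but encode no subunit had 9 lower and 2 higher, with a median log2 difference of -0.045, and none passed. They are the complex I assembly factors Ndufaf3, Ndufaf4, Ndufaf5, Ndufaf7 and Ndufaf8, the complex II assembly factors Sdhaf1 to Sdhaf4, the pseudogene Cox6c-ps1 and Atp5if1, which blocks the ATP synthase from running in reverse. The largest differences were those of Cox6c-ps1 (-0.21 ± 0.18 SE, near the signal filter), Sdhaf4 (-0.18 ± 0.093) and Sdhaf3 (-0.16 ± 0.067, adjusted p = 0.233 in limma). Atp5if1 was level, at 0.0081 ± 0.051. As a group they were noisier than the subunit genes, which were not matched to them for signal, with a median SD within ages of 0.17.

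The intermediate ages were compared with the same 3-month animals, so these comparisons and that of 23 months are not independent. At 6 months 0 of 85 genes passed limma's test, beside 1 of all genes (0.0124%), and 0 had an unadjusted p under 0.05, beside 2.85% of all genes. At 9 months the counts were 0, beside 3 of all genes (0.0371%), and 1 unadjusted, beside 3.09%. At 12 months they were 0, beside 18 of all genes (0.222%), and 1 unadjusted, beside 7.92%. Over the 5 ages together, the moderated F-test called 0 of 85, beside 152 of all genes (1.88%), with 3 of 85 at an unadjusted p under 0.05 against 9.25% of all genes. A plain analysis of variance, the test named by the study's design, also called 0 after adjustment and Ndufv3, Cox4i2 and Ndufb6 at an unadjusted p under 0.05.

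The medians of the complexes took different courses through 12 months, which were not tested against each other. At 12 months 24 of the 34 complex I genes stood above their 3-month level, with a median of 0.025, beside 4122 of all 8094 genes (median 0.0024). Between 12 and 23 months 31 of the 34 were lower at 23 months, with a median of -0.040, beside 3954 of all 8094 genes (median 0.0024). For complex I the count was 29 to 32 under the other scalings and without the arrays of high Ttr signal. No gene of the set passed limma's test of 23 against 12 months (0 of 85, beside 29 of all genes, 0.358%), and 5 had an unadjusted p under 0.05, beside 8.22% of all genes. In the same comparison complex III had 6 of 7 genes lower (median -0.024), complex V 8 of 15 (-0.033), complex IV 3 of 14 (0.031) and complex II 1 of 4 (0.012). With quantile normalization complex IV had 5 of 14 lower and a median of 0.0062 and complex III a median of -0.011, and without the arrays of high Ttr signal the median of complex V was -0.0040. All 5 genes of the F1 part were lower, with a median of -0.085. The sign for complex V turned without replicate 8 of 12 months (0.0064), and that for complex II without replicate 1 of 12 months (-0.018) or replicate 14 of 23 months (-0.00073). Other sets also had most genes lower at 23 than at 12 months: 13 of 14 vacuolar proton pump genes (median -0.029) and 10 of 13 citric acid cycle genes (-0.032). Proteasome genes had 21 of 34 lower (-0.026) and cytosolic ribosomal protein genes 3 of 38 (0.053). Since genes of a complex or set were read on the same arrays, such counts describe these animals and carry no test.

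**Figure D2:**
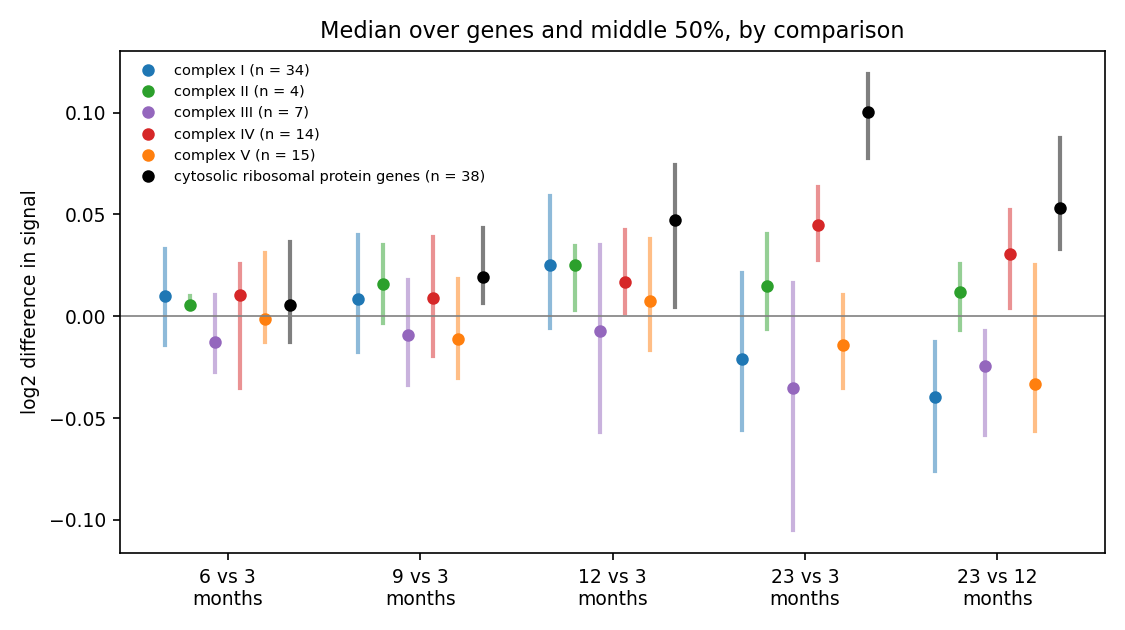
Median log2 difference over the tested genes of each complex (points) with the middle 50% of its genes (bars), for 4 ages against 3 months and for 23 against 12 months, with cytosolic ribosomal protein genes for comparison. The complex I median is 0.025 at 12 against 3 months and -0.040 at 23 against 12 months, and the ribosomal protein genes reach 0.10 at 23 against 3 months.

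The level of a complex in each animal was taken as the mean log2 signal of its genes after each gene's mean over all animals was subtracted. The complex I level averaged -0.0060 ± 0.042 (SD, n = 9) at 3 months, 0.025 ± 0.035 at 12 months and -0.023 ± 0.054 (n = 13) at 23 months. The ranges of the last 2, -0.028 to 0.066 and -0.093 to 0.072, overlapped for most animals. The complex IV level averaged -0.010 ± 0.048, -0.013 ± 0.061 and 0.035 ± 0.072 at these ages. For complex I the age means spanned 0.048, against a spread between animals of one age of 0.045. The same pair of values was 0.019 and 0.089 for complex II, 0.049 and 0.047 for complex III, 0.051 and 0.054 for complex IV and 0.023 and 0.057 for complex V. The spread between animals of one age was the larger of the pair for complexes II, IV and V, and the span of the age means was larger by a small margin for complexes I and III.

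**Figure D3:**
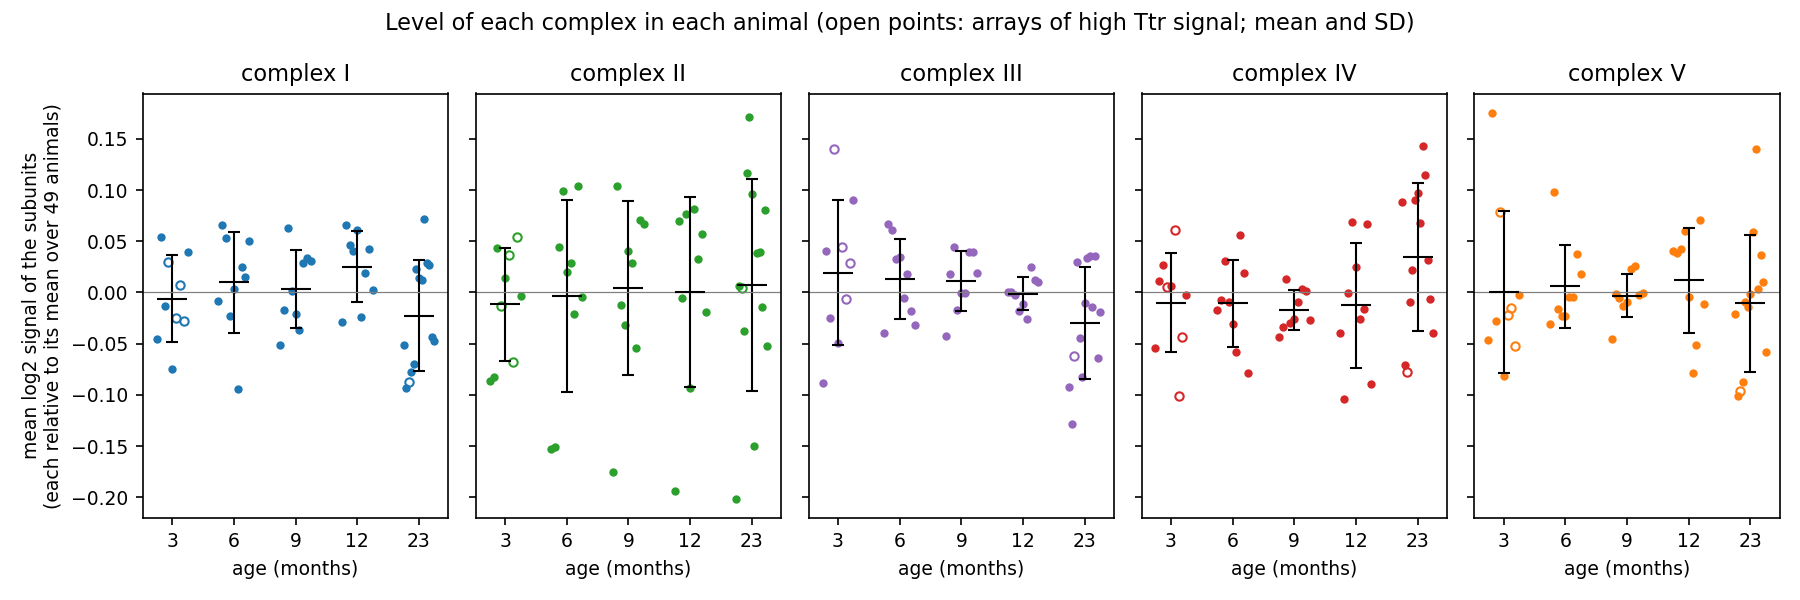
Level of each complex in each of the 49 animals by age: mean log2 signal of its genes, each relative to its mean over all animals, with group mean and SD (black) and open points for the 5 arrays of high Ttr signal. The ages overlap in all 5 complexes, and the lowest animal of complex II stands at -0.15, -0.18, -0.19 and -0.20 at 6, 9, 12 and 23 months.

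A line fitted along age in months is sensitive to slow drift over all 5 groups. It called 2 genes of 85, both falling, beside 414 of all genes (5.11%), of which 133 fell (1.64%). Both are subunits of the chain: Ndufb6 of complex I and Uqcrc2 of complex III. At an unadjusted p under 0.05 there were 9 of 85 (10.6%), against 17.2% of all genes. Over the 20 months from the youngest to the oldest animals, Ndufb6 fell by 0.18 ± 0.046 SE on the log2 scale (adjusted p = 0.00959, limma). Uqcrc2 fell by 0.15 ± 0.047 (adjusted p = 0.0482, limma), at the edge of the threshold. The next was Ndufv3, at -0.12 ± 0.042 (adjusted p = 0.0760, limma), and Cox4i2 had the steepest positive slope, 0.34 ± 0.14 (adjusted p = 0.167, limma).

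Neither decline was called under all settings. Uqcrc2 no longer passed without 1 of 29 arrays, taken singly, 5 of 3 months, 5 of 6, 7 of 9, 5 of 12 and 7 of 23 months, with adjusted p up to 0.124 (limma). The Ndufb6 call held without any single array (adjusted p at most 0.0292, limma). Without the 5 arrays of high Ttr signal neither passed, at -0.17 for Ndufb6 (adjusted p = 0.0515, limma) and -0.16 for Uqcrc2 (adjusted p = 0.0726, limma), and the line called Sdhaf4 in their place. Leaving out replicate 5 of 3 months or replicate 7 of 23 months added Ndufv3 to both. The sizes moved less than the calls: the slopes of both genes stayed negative in every setting run.

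**Figure D4:**
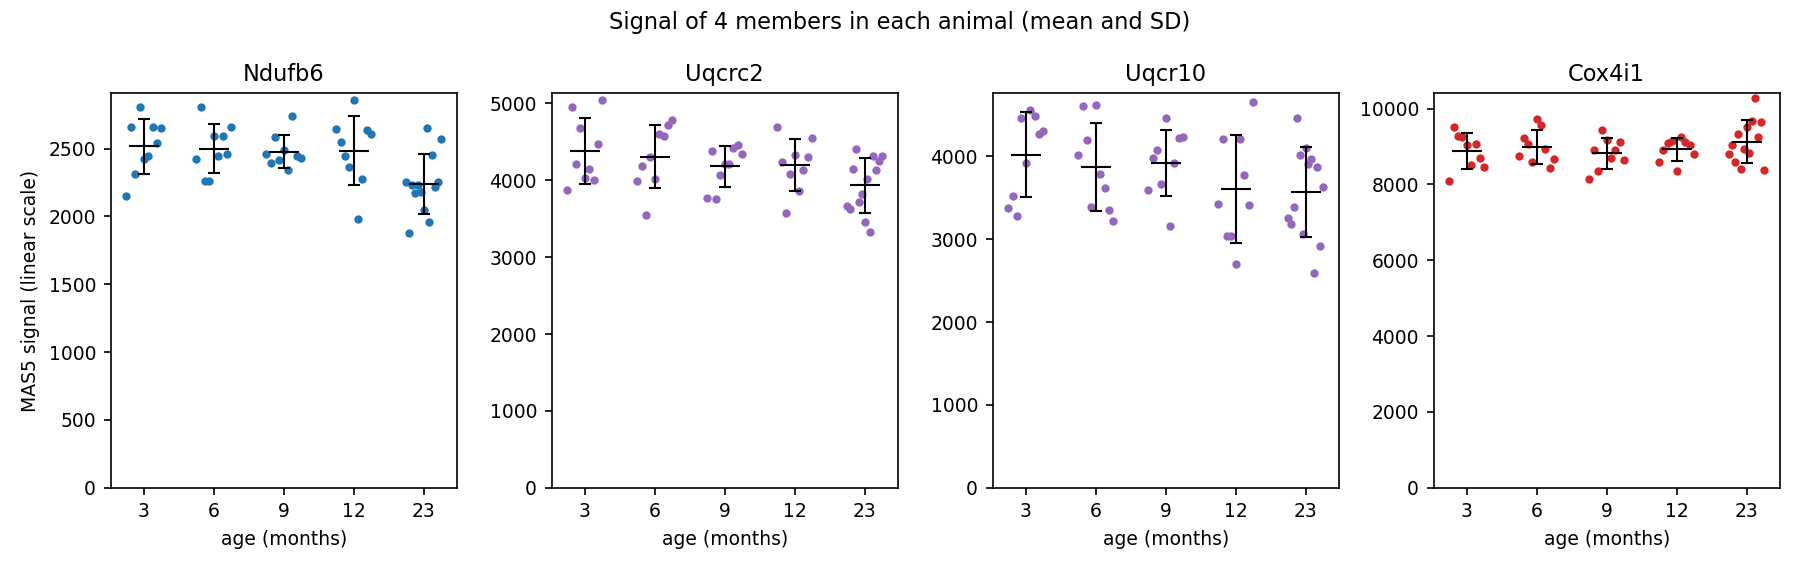
Deposited signal (linear scale) of Ndufb6, Uqcrc2, Uqcr10 and Cox4i1 in each animal by age, with group mean and SD. Ndufb6 falls from 2517 at 3 months to 2238 at 23 months and Uqcrc2 from 4379 to 3937, while Cox4i1 stands at 8884 and 9130 and all ages overlap for each gene.

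The transcripts of the respiratory chain varied little between animals of one age. The median SD within ages was 0.12 on the log2 scale, against 0.18 over all tested genes. Complexes I to V had medians of 0.12, 0.12, 0.11, 0.13 and 0.12. The steadiest gene was Ndufc2 of complex I (0.070), and the most variable were Cox6c-ps1 (0.42), Ndufb8 (0.38) and Cox4i2 (0.36). Cox6c-ps1 and Cox4i2 lay near the signal filter.

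Subunits of one complex are made in fixed proportion in the assembled enzyme, so it was asked whether their transcripts vary together from animal to animal. After age means were removed, the median Pearson r over the 49 animals was 0.11 for 784 pairs of genes of the same complex and 0.094 for 1917 pairs of different complexes. Over all pairs of tested genes it was 0.0014, and over pairs of cytosolic ribosomal protein genes 0.25. Complex II had the highest value, 0.36 over 6 pairs, followed by complex V (0.15), complex I (0.11), complex IV (0.083) and complex III (0.014). Pairs share arrays and array scaling: with quantile normalization the values were 0.060 within and 0.046 between complexes. Without the 5 animals numbered 1, complex II stood at 0.189 and complex V at 0.193, so the lead of complex II rested on those animals. Complexes I, IV and III kept their order, at 0.096, 0.068 and 0.018. Cox6b1 followed the other subunits most closely of all, with a median r of 0.25.

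**Figure D5:**
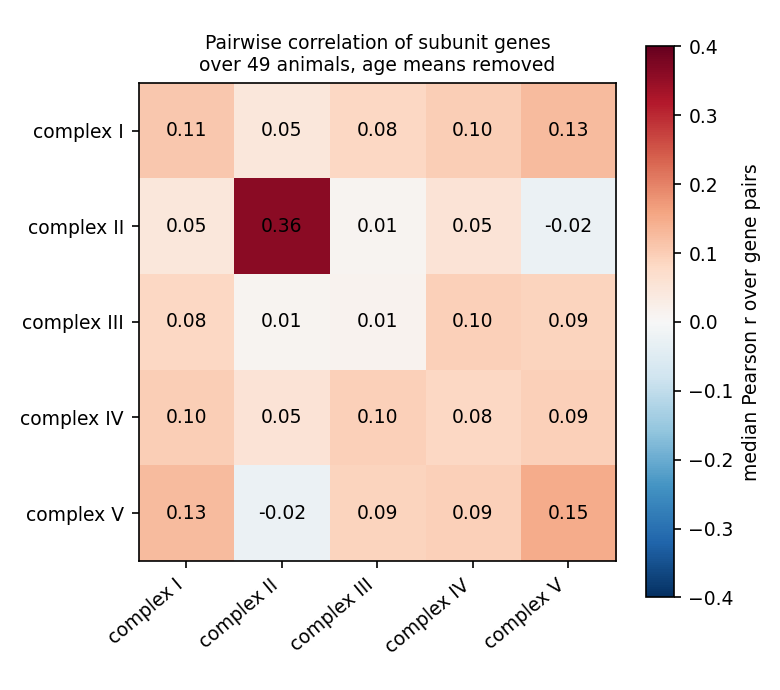
Median Pearson r of the log2 signals of gene pairs over 49 animals after age means were removed, within (diagonal) and between complexes. Apart from the 6 pairs of complex II, at 0.36, the values within complexes (0.014 to 0.15) are like those between complexes.

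Other genes of the pathway were taken from lists of textbook members. Their counts at 23 against 3 months stand beside 3.26% of all genes called and 14.4% at an unadjusted p under 0.05. Of 18 tested assembly factors outside the gene names used here, 10 were higher at 23 than at 3 months and 0 passed, with 1 at an unadjusted p under 0.05, Atpaf1, which helps build the F1 part (0.13 ± 0.052 SE, adjusted p = 0.161, limma). Of 10 genes for electron carriers, which cover ubiquinone synthesis, enzymes that feed electrons to ubiquinone, and Cyc1, a complex III subunit outside the names used here (-0.019 ± 0.056), 2 were higher and 0 passed, and none had an unadjusted p under 0.05. Of 13 citric acid cycle and pyruvate dehydrogenase genes 4 were higher and 0 passed, with 4 at an unadjusted p under 0.05. These were Suclg2 (0.14 ± 0.053), on the higher side, and Suclg1 (-0.16 ± 0.066), Idh3b (-0.13 ± 0.059) and Mdh2 (-0.092 ± 0.045) on the lower side. The first pair are subunits of succinyl-CoA ligase, and the others encode an isocitrate dehydrogenase subunit and mitochondrial malate dehydrogenase. Of 5 tested regulators of mitochondrial biogenesis 0 passed, and Esrra, a nuclear receptor, differed by -0.32 ± 0.12 (adjusted p = 0.151, limma). Of 7 mitochondrial antioxidant genes 0 passed, and none had an unadjusted p under 0.05.

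At 23 against 3 months, 3 of 10 genes for inner membrane carriers, mitochondrial creatine kinase and porins were higher and 7 lower. The list also holds Atp5if1. The median log2 difference was -0.043, and 1 gene passed, on the lower side. Slc25a11, the carrier that exchanges oxoglutarate for malate, had a signal of 1975 ± 161 in the 3-month group (SD, n = 9) and 1757 ± 148 in the 23-month group (SD, n = 13), with 12 of 13 animals below the 3-month mean. It fell by 0.17 ± 0.048 SE (adjusted p = 0.0318, limma). That call ended without replicate 2, 4, 6 or 9 of 3 months or replicate 10 or 14 of 23 months (adjusted p up to 0.0856, limma) and without the arrays of high Ttr signal (adjusted p = 0.225, limma). Of 11 planned settings other than single arrays left out, the call held in 7. Along age the line called Slc25a11 (adjusted p = 0.00481, limma) and Ckmt1, the mitochondrial creatine kinase of brain, which fell by 0.19 over 20 months (adjusted p = 0.0136, limma). All 13 of the oldest animals lay below the 3-month mean of Ckmt1, 1997 ± 260 (SD, n = 9), with a mean of 1743 ± 126.

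Gene sets of other large assemblies were read on the same arrays. Calls at 23 against 3 months stand beside 3.26% of all genes, and counts at an unadjusted p under 0.05 beside 14.4%. Between these ages all 38 cytosolic ribosomal protein genes were higher, with a median of 0.10. Of the 38, 1 passed and 21 had an unadjusted p under 0.05. The 14 vacuolar proton pump genes had 7 higher, a median of -0.013, 1 called and 3 at an unadjusted p under 0.05. The 34 proteasome genes had 14 higher, a median of -0.022, 1 called and 3 at an unadjusted p under 0.05. The median of the respiratory chain and ATP synthase genes, -0.011, lay beside the last pair and apart from the ribosomal protein genes. Along age the line called 7 ribosomal protein genes and 1 vacuolar proton pump gene, all rising, beside 5.11% of all genes. Of the proteasome genes it called 2 rising and 1 falling. No difference between these sets was tested.

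Markers of cell types also differed with age. In bulk tissue fewer cells of a type and less RNA per cell cannot be told apart. Calls of markers stand beside 3.26% of all genes at 23 against 3 months and 5.11% along age. Counts of markers at an unadjusted p under 0.05 stand beside 14.4%. All 6 microglial markers were higher at 23 than at 3 months and 5 were called, with a median log2 difference of 0.52. The mean level of the microglial list lay between -0.33 and -0.042 in the 3-month animals and between -6.0e-05 and 0.87 in the 23-month animals. Of 6 astrocyte markers 5 were higher and 2 were called, Gfap, higher by 0.40 ± 0.059 SE, and Slc1a3, by 0.19 ± 0.044. Of 6 neuronal markers 3 were higher and 3 lower, and 1 was called, Stmn2, lower by 0.30 ± 0.084. The level of the neuronal list lay between -0.085 and 0.070 at 3 months and between -0.14 and 0.058 at 23 months. All 3 markers of CA1 pyramidal cells were detected, which bears on the dissection, and all 3 were lower at 23 months (median -0.15, each at an unadjusted p under 0.05). Pou3f1 fell by 0.32 ± 0.084, and along age the line called Pou3f1 and Dkk3, both falling (adjusted p = 0.0171 and 0.0375, limma). The list level ran from -0.076 to 0.20 at 3 months and from -0.25 to 0.051 at 23 months. Dentate granule markers, 2 of 3 tested, varied widely within every age, from -1.0 to 0.78 at 3 months and from -1.2 to 0.94 at 23 months. Of the oligodendrocyte, endothelial, choroid plexus and blood markers tested, 5, 3, 4 and 1, none passed at 23 against 3 months. None had an array listed at 0. The level of the 1 blood marker stood at 7.1 in replicate 8 and 4.4 in replicate 5 of 23 months, and at -0.99 in the lowest animals. Along age the line called 1 of the 5 oligodendrocyte markers, which rose. The part of these shifts in the differences of Ndufb6, Uqcrc2 and the complexes was not tested.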

How the data were processed

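The deposited values are linear MAS5 intensities, a step recorded in the submitters' processing notes, and the authors scaled every array to a target of 500, as the design text states. The version of MAS5 is not given in the sources used here. The labels give 23 months for the oldest group, and the design text gives an older age in 1 place. Scan dates and presence calls were not used here, so array batches could not be tested. Array number limits the precision, and the p-values weigh an age difference or slope against the spread between animals.

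Of 15923 probe sets, 12789 had 1 gene symbol in the platform annotation, and 12754 of these matched RefSeq GRCr8 by Entrez ID. Each gene was read by its brightest probe set. Signals under 16 were set to 16 (0.0466% of tested values), and log2 was taken with no further scaling. No 2 of the 1176 array pairs were alike (smallest SD of their log2 difference 0.24), and 0 per-sample columns were left unused. Tests used limma 3.58.1 in R 4.3.3, with 1 mean per age or a line in months fitted to all 49 arrays and a variance trend in eBayes. P-values were adjusted by Benjamini-Hochberg over 8094 genes, and calls were made at an adjusted p under 0.05. The limma steps were tested on simulated data.

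Named genes were the 2 highest and 2 lowest differences of each complex between 23 and 3 months, all called genes, complex IV forms, and leading or called genes of the pathway lists. Others, such as core, F1 and assembly genes, were named for their roles after values were seen. Genes and lists were chosen with earlier results of these data known. Alternatives covered the floor, the filter, the scaling, probe sets, variance model, array weights, the replicate number, the arrays of high Ttr signal, a plain analysis of variance and each array left out. Leaving out the animals numbered 1 was added after seeing the data.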

Additional observations from a re-analysis of the deposited data

Results flagged for a closer look

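Of 100 groups of 9 animals tested, 4 ages for each of 25 named genes, 9 held a sample far from the others by Dixon's test at the 95% level. Chance marks about 1 in 20 groups, and the 23-month group is too large for the test. Animals labelled replicate 1 were low for Sdhc at 9 months, at 2707.7 against 3026.4 to 3328.7 in the other animals, and at 12 months, at 2506.8 against 3032.4 to 3419.7. They were low for Cox7a2l at 3 months, at 2432.1 against 3020.9 to 3434.1, and at 9 months, at 2667.3 against 3052.6 to 3401. Ndufb8 stood at 1097.5 in replicate 9 of 6 months, against 375.2 to 726.5. Ndufa4 stood at 6823.3 in replicate 2 of 3 months, against 5058.7 to 5933.9. At 6 months Cox6a1 stood at 7058.3 in replicate 2, against 5685.7 to 6371.7, Cox6b1 at 4216.9 in replicate 6, against 5178 to 5914.7, and Cox8a at 12914.9 in replicate 3, against 9816.4 to 11352.4.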

How the results depend on the processing

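The count of genes called along age was 2 and became 1 with no signal filter (Ndufb6), with eBayes without a variance trend (Ndufb6), without the arrays of high Ttr signal (Sdhaf4) and with the replicate number as a block (Uqcrc2). It lay between 1 and 3 when each array was left out. The count for 23 against 3 months was 0 and became 1, Ndufb6, with array weights and without the animals numbered 1, and lay between 0 and 1 when each array was left out. The plain analysis of variance without adjustment called 3. The other counts that answer a comparison stayed the same in the settings run. Each median moved by less than a limit, the spread of its list's level between animals of one age. That limit was 0.033 for the 85 genes, 0.054 for complex IV and 0.089 for complex II. It exceeds the size of their medians at 23 against 3 months (-0.011, 0.045 and 0.015). Staying within the limit therefore does not show that a sign or size held. Signs of medians that turned are given in the report for 23 months. At 12 against 3 months, quantile normalization turned complex IV from 0.017 to -0.019 and complex V from 0.0076 to -0.016, complex V was -0.00098 without replicate 8 of 12 months, and complex III, at -0.0070, lay between 0.0041 and 0.016 without replicate 9 of 3 months or replicate 2, 4, 5, 6 or 9 of 12 months. For single genes, the Atp5me difference was -0.097 as a mean over its probe sets. With the block the Ndufb6 slope was -0.12 per 20 months (adjusted p = 0.206, limma) and that of Uqcrc2 -0.14 (adjusted p = 0.0474, limma). The block also ended the calls of Slc25a11, along age and at 23 against 3 months (adjusted p = 0.0717 and 0.124, limma), and of Ckmt1 along age (adjusted p = 0.127, limma). Animals are separate, and of 86 pairs of arrays with the same number 33 correlated over 0.1 in their deviations (median 0.055), and the labels do not say what the number stands for, so the numbers were not used as pairs. Signals near 100 (Cox4i2, Cox7a1, Ndufa4l2, Cox6c-ps1) limit precision. At 12 against 3 months the median of complex III was -0.043 and that of complex V 0.021 without the arrays of high Ttr signal.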

Other observations

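The complex II level, the mean of Sdha, Sdhb, Sdhc and Sdhd, was lowest in the animal numbered 1 at all 5 ages, a pattern chosen after its values were seen. It stood at -0.086, -0.15, -0.18, -0.19 and -0.20 on the log2 scale at 3, 6, 9, 12 and 23 months, where the next lowest animals stood at -0.083, -0.15, -0.054, -0.093 and -0.15. No single gene of the respiratory chain or ATP synthase was lowest in that animal at all 5 ages, beside 14 of all 8094 genes, and Sdhc and Ndufa13 were so at 4. Deviations of the arrays numbered 1 correlated with a median r of 0.18 among themselves (from 0.0086 to 0.36), against -0.0097 for arrays of different numbers. For the other numbers the median r ran from -0.057 (number 2) to 0.12 (number 9). The labels do not say what the number stands for, and the cause was not tested.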
